A study of Mus musculus with 12 samples.

Results

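The MHC class II genes of the mouse and Ciita, the gene of their master activator, were followed through B cell activation and plasmablast differentiation. The set holds 10 genes, picked by symbol and matched to the Entrez identifiers of the deposited table of 27179 genes, namely Ciita, H2-Aa, H2-Ab1, H2-Eb1, Cd74, H2-DMa, H2-DMb1, H2-DMb2, H2-Oa and H2-Ob. All 10 passed the filter on low counts, as did 12750 genes in all. The rule names symbols and no measured value, although the genes were picked with earlier results of these data known. RNA-Seq covered 6 stages of splenic B cells from male mice on a C57BL/6 Pep3b background, 6 to 12 weeks old, with 2 biological replicates per stage and 12 libraries in all. The sources do not say whether the duplicates came from separate mice, so p-values measure the spread between these libraries only. Naive B cells were sorted as TCRβ-, B220+, IgM+ and IgD high and received no treatment. B cells stimulated with lipopolysaccharide (LPS) at 25 µg/ml were sorted at 3, 10 and 33 h as activated cells that had not divided, and on day 4 as expanded B cells (CD22+ CD138-) or plasmablasts (CD22- CD138+). In the study's methods, the cells for 3, 10 and 33 h were labelled with a dye and cultured at a higher density than those for day 4. Culture and stage therefore cannot be told apart from 33 h to expanded B cells. The stimulated cells had been enriched by negative selection rather than sorted before culture, and the model is a culture with LPS as the sole stimulus, without T cell help.

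MHC class II molecules are heterodimers of an alpha and a beta chain that display peptides from endocytosed proteins to CD4 T cells, and B cells are among the few cell types that express them constitutively. The invariant chain, Cd74, fills the groove of the new heterodimer and guides it to endosomes, where H2-M exchanges the invariant chain remnant for peptide and H2-O restrains H2-M. Ciita does not bind DNA. It is recruited to promoters by an assembly of RFX, CREB and NF-Y factors on a conserved pair of elements, the X box and the Y box, and the same module is found before most class II genes, Cd74, the H2-M genes and, with less dependence on Ciita, the H2-O genes. Differentiation to plasma cells is known to silence Ciita, with Blimp-1 (Prdm1) as a repressor.

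Ciita lies at chr16:10480014-10531064 of GRCm38 (mm10). H2-Oa, H2-DMa, H2-DMb2, H2-DMb1, H2-Ob, H2-Ab1, H2-Aa and H2-Eb1 share the class II region of chromosome 17, in the order H2-Oa (chr17:34092379-34095234), H2-DMa (chr17:34119693-34139101), H2-DMb2 (chr17:34143229-34151553), H2-DMb1 (chr17:34153191-34160229), H2-Ob (chr17:34238905-34245908), H2-Ab1 (chr17:34263227-34269418), H2-Aa (chr17:34282744-34287823) and H2-Eb1 (chr17:34305867-34316674). Promoters are shown for 5 genes of the set. In these, letters of the module through which Ciita is known to be recruited were found, exactly or in a wider search described after them. Each line gives the 150 bases before a RefSeq start site on the strand of the gene, from GRCm38.p6, and capitals mark ATTGG and, ahead of it, AGCAAC or, in H2-Aa and H2-DMb1, letters 1 change away from AGCAAC. The windows of H2-DMa and H2-DMb2, in which neither search found the pair, are not printed.
H2-Eb1, chr17:34305717-34305866, plus strand: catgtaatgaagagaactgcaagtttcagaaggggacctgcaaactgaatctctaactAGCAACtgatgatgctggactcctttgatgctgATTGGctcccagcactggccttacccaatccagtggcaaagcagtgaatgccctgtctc
H2-Ob, chr17:34238755-34238904, plus strand: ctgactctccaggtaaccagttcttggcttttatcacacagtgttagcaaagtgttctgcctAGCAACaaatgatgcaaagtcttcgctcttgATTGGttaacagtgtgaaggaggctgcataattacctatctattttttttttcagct
H2-Oa, chr17:34092229-34092378, plus strand: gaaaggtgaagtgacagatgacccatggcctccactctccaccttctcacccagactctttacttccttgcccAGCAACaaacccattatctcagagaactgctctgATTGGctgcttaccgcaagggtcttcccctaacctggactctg
H2-Aa, chr17:34287824-34287973, minus strand: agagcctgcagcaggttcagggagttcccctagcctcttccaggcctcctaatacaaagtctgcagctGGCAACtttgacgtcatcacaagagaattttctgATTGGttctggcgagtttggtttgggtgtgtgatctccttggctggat
H2-DMb1, chr17:34153041-34153190, plus strand: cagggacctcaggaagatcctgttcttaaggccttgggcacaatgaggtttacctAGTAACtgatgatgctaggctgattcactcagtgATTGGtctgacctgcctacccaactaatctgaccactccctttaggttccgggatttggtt

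The X box core was searched as AGCAAC and the Y box core as ATTGG, on both strands of RefSeq windows from 250 bases before to 50 bases after the start. A window was used for 7 of the 10 genes, with 8 windows in all since H2-DMa has 2. Ciita, H2-Ab1 and Cd74 had no window in the search, so nothing is said of their promoters. ATTGG was found in 7 of the 8 windows, against 37.4% of 32851 windows of the genome, and AGCAAC in 3 of them, against 14.8%. The pair on 1 strand, with ATTGG beginning 15 to 45 bases after AGCAAC, was found in 3 windows, those of H2-Eb1, H2-Ob and H2-Oa, and in 0.505% of all windows. In these 3 the distance from the first base of AGCAAC to the first base of ATTGG was 33, 31 and 34 bases. After the sequences had been seen, AGCAAC with at most 1 letter changed was also searched 31 to 34 bases ahead of ATTGG, which added H2-Aa with GGCAAC and H2-DMb1 with AGTAAC, both at 34 bases. This wider search held for 5 of the 8 windows and for 0.871% of all windows. Its distances are those of the 3 exact windows, which therefore pass by construction, so these shares are not a test. The letters describe the windows only and show neither binding nor its absence.

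Levels are given as RPKM, which scales read counts to exon length and library size, computed from the counts with library sizes corrected by TMM (trimmed mean of M-values), and replicate 1 comes first. Total counts per library ran from 23026619 to 60585587. The 10 genes took 4.93% and 4.65% of all counts in naive cells, 0.676% and 0.619% at 10 h, and 0.829% and 0.817% in plasmablasts. In a bulk library, fewer cells that carry a transcript and less transcript per cell cannot be told apart. Markers of B cells (Cd79a, Cd79b, Ms4a1, Cd22 and Pax5) were above 3 counts in all 12 libraries. Their summed level was 8960 and 8680 CPM (counts scaled to the total of the library, without TMM) in naive cells, 3110 to 4550 CPM from 3 h to expanded B cells, and 1820 and 1760 CPM in plasmablasts, where Cd22 is part of the sort.

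Ciita, the activator, had its highest level in naive cells and its lowest in plasmablasts. It stood at 138 and 133 RPKM in the naive libraries, 17.5 and 28.5 in the 3 h libraries, 15.9 and 14.6 in the 10 h libraries, 39.3 and 26.0 in the 33 h libraries, 30.5 and 25.8 in the expanded B cell libraries, and 0.900 and 0.743 in the plasmablast libraries. The naive and plasmablast libraries overlapped with no other stage, whereas the range at 3 h overlapped with those at 33 h and in expanded B cells (with library totals, with that at 10 h instead). The plasmablast values rest on 121 and 120 counts.

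The 2 chains of H2-A and the beta chain of H2-E were among the most abundant of the 10 transcripts at every stage. H2-Aa, the alpha chain of H2-A, stood at 7786 and 7794 RPKM in the naive libraries, 6308 and 6791 in the 3 h libraries, 619 and 496 in the 10 h libraries, 1574 and 1174 in the 33 h libraries, 1216 and 1173 in the expanded B cell libraries, and 768 and 711 in the plasmablast libraries. H2-Ab1, its beta chain, stood at 4817 and 4752 RPKM in the naive libraries, 5096 and 5011 in the 3 h libraries, 513 and 436 in the 10 h libraries, 1216 and 933 in the 33 h libraries, 1120 and 1076 in the expanded B cell libraries, and 749 and 699 in the plasmablast libraries. H2-Eb1, the beta chain of H2-E, stood at 3729 and 3667 RPKM in the naive libraries, 3044 and 2993 in the 3 h libraries, 357 and 295 in the 10 h libraries, 888 and 624 in the 33 h libraries, 874 and 814 in the expanded B cell libraries, and 356 and 336 in the plasmablast libraries. The 3 chains were lowest at 10 h or, for H2-Eb1, at 10 h and in plasmablasts, whose ranges overlapped. This order rests on the scaling, since with library totals in place of TMM the means at 10 h and in plasmablasts were 560.5 and 536 RPKM for H2-Aa, 477 and 525 for H2-Ab1 and 328 and 251 for H2-Eb1, with overlap for H2-Aa and H2-Ab1. H2-Ab1 was the sole gene of the 10 with both 3 h libraries above both naive libraries, and with library totals they were below them. H2-Ea, the alpha chain that pairs with H2-Eb1 and which C57BL/6 mice do not express in functional form, had 0 to 8 counts per library and was not tested.

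Cd74, the invariant chain, had the highest RPKM of the 10 in every library. It stood at 22250 and 21010 RPKM in the naive libraries, 17020 and 14220 in the 3 h libraries, 3161 and 3023 in the 10 h libraries, 6485 and 4983 in the 33 h libraries, 5498 and 5594 in the expanded B cell libraries, and 6184 and 6337 in the plasmablast libraries. The plasmablast libraries were above those of expanded B cells and within the range at 33 h, but with library totals both were below these stages, at 4526 and 4547 RPKM. Cd74 alone took 2.78% and 2.56% of all counts in naive cells.

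The H2-M genes encode the peptide exchange factor, with H2-DMa as alpha chain and H2-DMb1 and H2-DMb2 as alternative beta chains. H2-DMa stood at 910 and 975 RPKM in the naive libraries, 322 and 266 in the 3 h libraries, 86.5 and 80.3 in the 10 h libraries, 199 and 144 in the 33 h libraries, 162 and 142 in the expanded B cell libraries, and 50.4 and 48.9 in the plasmablast libraries. H2-DMb1 stood at 155 and 152 RPKM in the naive libraries, 82.4 and 73.0 in the 3 h libraries, 15.4 and 13.9 in the 10 h libraries, 48.1 and 38.4 in the 33 h libraries, 31.4 and 30.6 in the expanded B cell libraries, and 8.25 and 7.33 in the plasmablast libraries. H2-DMb2 stood at 958.5 and 959.5 RPKM in the naive libraries, 451 and 374 in the 3 h libraries, 78.5 and 69.9 in the 10 h libraries, 193 and 146 in the 33 h libraries, 145 and 137 in the expanded B cell libraries, and 24.4 and 23.2 in the plasmablast libraries. All 3 had their highest level in naive cells and their lowest in plasmablasts, with no overlap with any other stage. In the GENCODE transcripts, H2-DMb1 and H2-DMb2 share 236 stretches as long as a read (81 bases), 14.8% of those of H2-DMb1 and 13.6% of those of H2-DMb2, so reads could be split between them.

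The H2-O genes encode the inhibitor of H2-M, and their courses parted after 10 h. H2-Oa, the alpha chain, stood at 452 and 450 RPKM in the naive libraries, 120 and 108 in the 3 h libraries, 17.3 and 14.9 in the 10 h libraries, 53.0 and 29.8 in the 33 h libraries, 26.2 and 27.2 in the expanded B cell libraries, and 1.49 and 1.01 in the plasmablast libraries. H2-Ob, the beta chain, stood at 397 and 396 RPKM in the naive libraries, 230 and 214 in the 3 h libraries, 41.95 and 44.97 in the 10 h libraries, 43.2 and 26.3 in the 33 h libraries, 46.9 and 47.5 in the expanded B cell libraries, and 72.4 and 72.4 in the plasmablast libraries. In plasmablasts H2-Oa was at its lowest, with 37 and 30 counts, whereas H2-Ob was above its levels of the 3 preceding stages in both libraries. In the GENCODE exons, H2-Oa shares 321 bases with the antisense gene BC051537, H2-DMa shares 360 with Brd2 and Ciita 329 with Dexi. Each overlap is on the opposite strand. The counts used another annotation, and whether it holds these stretches was not checked. Whether the counting used strand is not stated, so reads in these stretches, if counted, could belong to either gene.

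**Figure D1:**
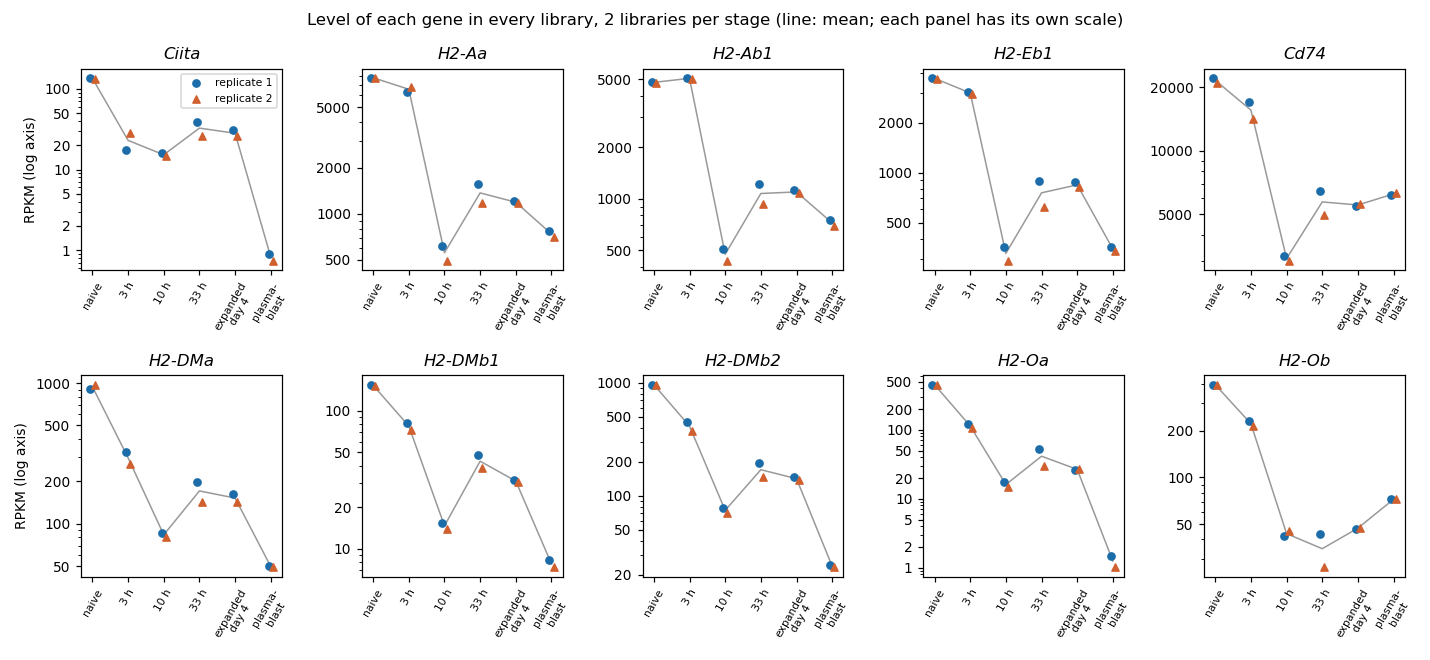
RPKM on a log axis for each of the 10 genes at the 6 stages, with circles for replicate 1, triangles for replicate 2 and a line through the means. Between 3 h and 10 h the 9 genes other than Ciita drop steeply, and in plasmablasts Ciita and H2-Oa reach about 1 RPKM while Cd74 stays at 6184 and 6337.

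Per length, the order in naive cells was Cd74, H2-Aa, H2-Ab1, H2-Eb1, H2-DMb2, H2-DMa, H2-Oa, H2-Ob, H2-DMb1 and Ciita, and among neighbours in this order the libraries overlapped for H2-DMb2 and H2-DMa. In plasmablasts the order was Cd74, H2-Aa, H2-Ab1, H2-Eb1, H2-Ob, H2-DMa, H2-DMb2, H2-DMb1, H2-Oa and Ciita, with overlap of H2-Aa and H2-Ab1. H2-Ob thus stood in the eighth place in naive cells and in the fifth in plasmablasts. At 33 h, replicate 1 was above replicate 2 for all 10 genes, and the calls of the 10 genes at the steps into and out of that stage are also given without each of its libraries.

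Genes were compared between stages with edgeR's glmTreat, which asks whether a change is beyond 1.5-fold, and were called at a Benjamini-Hochberg adjusted p under 0.05 over all 12750 genes. The quasi-likelihood F-test of the same fit, which asks for a change of any size, is given as a count beside that of glmTreat where the counts differ. Over all tested genes it called 34.7% higher and 36.3% lower by 3 h, 32.1% and 30.2% from 3 h to 10 h, 23.2% and 22.2% from 10 h to 33 h, 18.5% and 21.2% from there to expanded B cells, and 27.2% and 29.7% on to plasmablasts. Against naive cells it called 37.7% higher and 35.3% lower for expanded B cells and, for plasmablasts, 38.2% and 35.9%. Fold changes are log2, with the standard error (SE) from the fit. A permutation of 2 libraries against 2 cannot give an exact two-sided p below 0.33, so each smaller p rests on the spread shared across genes and stages.

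From naive cells to 3 h, Ciita, the H2-M genes and H2-Oa fell, while the chains of H2-A and H2-E and Cd74 were not called. Of the 10 genes 5 were called as lower and 0 as higher, against 24.3% and 21% of all tested genes (7 and 0 by the F-test), and the median change was -0.91, against -0.03 over all genes. Ciita fell 5.87-fold (log2 fold change -2.55, SE 0.23, adjusted p = 6.51e-06), the largest change of the set. H2-Oa fell 3.97-fold (-1.99, SE 0.21, adjusted p = 2.41e-05) and H2-DMa 3.21-fold (-1.68, SE 0.14, adjusted p = 3.43e-06). H2-DMb2 (-1.22, SE 0.13) and H2-DMb1 (-0.98, SE 0.11) were the other 2, with adjusted p of 9.03e-05 and 0.00135. H2-Ob missed the call at -0.84 (SE 0.16, adjusted p = 0.0504), was lower by the F-test (adjusted p = 0.000658), and was called under 14 of 23 alternative settings. The remaining 4 were at -0.47 for Cd74, -0.29 for H2-Eb1, -0.25 for H2-Aa and 0.08 for H2-Ab1, with SE of 0.11 to 0.14, and of these the F-test found Cd74 lower (adjusted p = 0.00233). The direction of H2-Ab1 turned when libraries were scaled by their size only (-0.13). That scaling shifted the median change of all genes by -0.21 and moved the calls over all genes from 2674 up and 3100 down to 2091 up and 3716 down.

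Signs of other cells in the naive libraries stand beside this comparison. A list of 12 dendritic cell and macrophage markers summed to 177 and 89.3 CPM in naive cells, with all 12 above 3 counts and Lyz2 the highest at 131 and 54.9 CPM. From 3 h on the sum was 25.8 to 81.8 CPM, with 5 to 8 of the 12 at or under 3 counts per library, and its highest member was Zbtb46 at 3 h and Flt3 afterwards. Of the 11 markers tested, 8 were lower and 2 higher by 3 h, against 24.3% and 21% of all tested genes. The higher ones were Zbtb46 (7.73), with 14 and 7 counts in naive cells and 1679 and 1746 at 3 h, and Flt3 (1.71). Lyz2 had 1 and 2 counts at 3 h, and Csf1r, another defining marker, had 0 and 2 after 963 and 447 in naive cells. Such cells express class II genes. T cell markers summed to 3.37 and 3.44 CPM in naive cells and to at most 1.55 CPM in the other libraries. The part of these cells in the change by 3 h was not tested.

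From 3 h to 10 h the 9 other genes fell, the chains and Cd74 included, while Ciita was not called. The count was 9 lower and 0 higher of 10, against 13.4% and 17.4% of all tested genes (10 and 0 by the F-test), with a median of -2.44 against 0.02. H2-Aa fell 11.8-fold (-3.55, SE 0.14, adjusted p = 5.78e-09), H2-Ab1 10.7-fold (-3.41, SE 0.12, adjusted p = 3.18e-09) and H2-Eb1 9.26-fold (-3.21, SE 0.15, adjusted p = 2.2e-08). H2-Oa fell by 2.82 on the log2 scale, H2-DMb2 by 2.47, H2-DMb1 by 2.40, H2-Ob by 2.35, Cd74 by 2.34 and H2-DMa by 1.82, with adjusted p of at most 3.83e-06. Ciita was at -0.59 (SE 0.22, adjusted p = 0.483), a change that the F-test called (adjusted p = 0.0364). Over the alternatives the value of Ciita ran from -0.90 to -0.18. With library size alone the calls over all genes went from 2221 up and 1711 down to 3432 up and 1004 down, with a median shift of 0.33, and the 9 genes were still called as lower.

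From 10 h to 33 h the set rose, with the exception of H2-Ob. Of the 10 genes 9 were called as higher and 0 as lower, against 10.1% and 4.45% of all tested genes, with a median of 1.19 against -0.02. H2-DMb1 rose 2.94-fold (1.56, SE 0.12, adjusted p = 6.82e-06), H2-Oa 2.58-fold (1.37, SE 0.21, adjusted p = 0.00432) and H2-Aa 2.46-fold (1.30, SE 0.13, adjusted p = 0.000192). H2-Eb1 (1.21), H2-DMb2 (1.19), H2-Ab1 (1.18), H2-DMa (1.04) and Cd74 (0.89) followed, with adjusted p of 0.000277 to 0.0184. Ciita was 2.14-fold higher (1.10, SE 0.22, adjusted p = 0.039), the weakest call of the 9. H2-Ob was at -0.32 (SE 0.17, adjusted p = 1). Leaving out replicate 2 at 33 h kept the 9 calls, with Ciita at 1.37 (adjusted p = 0.00913). Leaving out replicate 1 at 33 h ended the calls of Ciita (0.77, adjusted p = 0.351), Cd74 (0.69, adjusted p = 0.242) and H2-DMa (0.79, adjusted p = 0.123), and leaving out replicate 2 at 10 h ended the same 3, with Ciita at 1.04 (adjusted p = 0.164). The call of Ciita was also lost without replicate 1 at 10 h (1.17, adjusted p = 0.0836), with library size alone (1.04, adjusted p = 0.0757) and with the removed genes kept (1.07, adjusted p = 0.0519), so that it held in 18 of 23 alternatives. That of H2-Oa was lost in the fit to only the 4 libraries compared (1.40, adjusted p = 0.067).

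From 33 h to expanded B cells on day 4, 0 of the 10 genes were called, against 6.94% of all tested genes that were higher and 3.66% that were lower. The count was also 0 at an unadjusted glmTreat p under 0.05, and the median was -0.19 against -0.02. Changes ran from -0.64 for H2-Oa to 0.44 for H2-Ob, with Ciita at -0.21 (SE 0.22). At an adjusted p under 0.05, the F-test found H2-DMb1 (-0.48, SE 0.12, adjusted p = 0.0052) and H2-Oa (-0.64, SE 0.21, adjusted p = 0.0288) lower, and DESeq2's Wald test called 3 genes. Without replicate 1 at 33 h, H2-Ob was called as higher (0.84, adjusted p = 0.0262), and without replicate 2 there, H2-Oa as lower (-0.996, adjusted p = 0.0111).

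**Figure D2:**
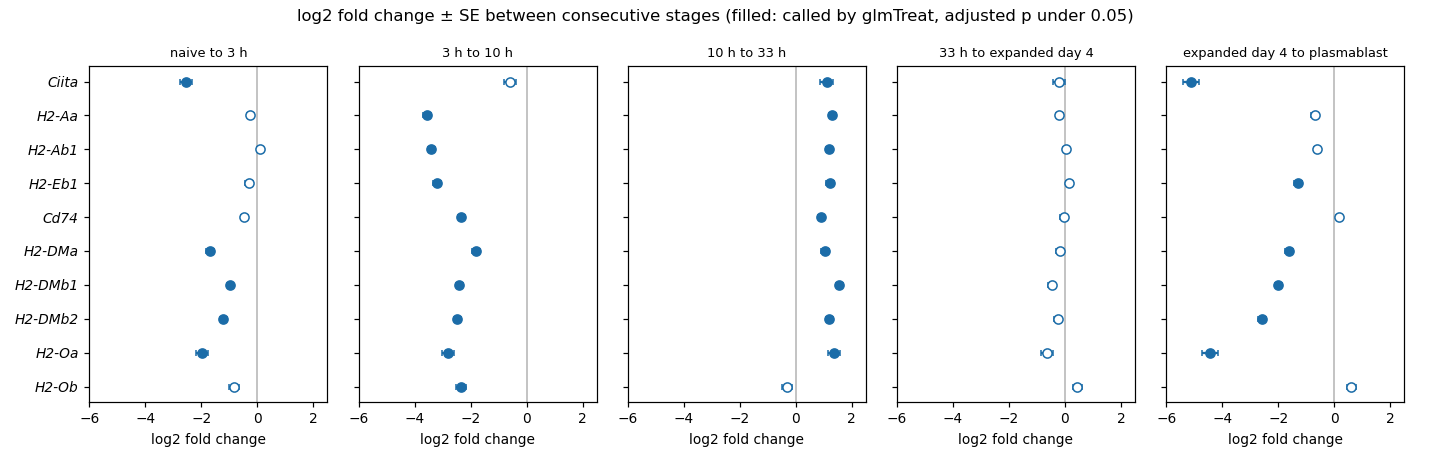
log2 fold change of the 10 genes at the 5 consecutive comparisons, with bars for the SE and filled circles for genes called by glmTreat. Ciita is called at the first, the third and the last comparison, whereas H2-Aa and H2-Ab1 are called at the second and the third only.

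On differentiation from expanded B cells to plasmablasts the set split. Of the 10 genes 6 were called as lower and 0 as higher, against 12.2% and 13.9% of all tested genes (8 and 1 by the F-test), with a median of -1.45 against -0.05. Ciita fell 34.4-fold (-5.11, SE 0.28, adjusted p = 1.75e-07) and H2-Oa 21.6-fold (-4.43, SE 0.30, adjusted p = 6.26e-07). The H2-M genes fell by 2.57 (H2-DMb2), 1.99 (H2-DMb1) and 1.62 (H2-DMa) on the log2 scale, with adjusted p of 4.51e-08, 3.78e-07 and 1.67e-05. H2-Eb1 fell 2.44-fold (-1.29, SE 0.14, adjusted p = 0.000193). H2-Aa was at -0.69 (SE 0.13, adjusted p = 0.229) and H2-Ab1 at -0.60 (SE 0.11, adjusted p = 0.504), both lower by the F-test (adjusted p of 0.000523 and 0.000529). Cd74 was at 0.17 (SE 0.11, adjusted p = 1). H2-Ob was at 0.62 (SE 0.17, adjusted p = 0.482), higher by the F-test (adjusted p = 0.00721).

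The scaling touches this comparison as well, for a cause that was not tested. Library size alone moved the calls over all genes from 1776 up and 1553 down to 1181 up and 2953 down, with a median shift of -0.34. Under it Cd74 turned to -0.16 (adjusted p = 1), H2-Aa and H2-Ab1 were called as lower (-1.03 and -0.94, adjusted p of 0.0032 and 0.00479), and the 6 calls above held. TMM computed without the 10 genes, the immunoglobulin constant genes and Jchain left all 10 calls as they were. Plasmablast markers (Sdc1, Prdm1, Xbp1, Irf4 and Jchain) summed to 16900 and 16400 CPM (library totals, without TMM) in plasmablasts and 2190 and 2540 CPM in expanded B cells.

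Over the whole course, all 10 genes ended below their naive level. From naive to expanded B cells 10 of 10 were called as lower and 0 as higher, against 22.2% and 24.9% of all tested genes, with changes from -1.96 for Cd74 to -4.08 for H2-Oa and a median of -2.47 against 0.03. From naive cells to plasmablasts 10 of 10 were again called as lower and 0 as higher, against 23.4% and 26.6%, with a median of -3.83 against 0.02. Library size alone moved the calls over all genes there from 3386 up and 2985 down to 2730 up and 3884 down, with a median shift of -0.285. The size ran from 3.46-fold for Cd74 (-1.79, SE 0.12, adjusted p = 1.61e-07) to 365-fold for H2-Oa (-8.51, SE 0.31, adjusted p = 5.49e-10), with Ciita at 165-fold (-7.37, SE 0.30, adjusted p = 2.78e-09). H2-DMb2 (40.3-fold), H2-DMb1 (19.7-fold) and H2-DMa (19.0-fold) lay between, followed by H2-Eb1 (10.7-fold), H2-Aa (10.5-fold), H2-Ab1 (6.61-fold) and H2-Ob (5.47-fold). These calls were unchanged in direction and significance under all 23 alternatives. Both comparisons share the naive libraries, whose signs of other cells are given above. Of the 11 dendritic cell and macrophage markers tested, 7 were lower and 2 higher at each comparison (8 and 2 by the F-test for plasmablasts). Over all tested genes the shares were 22.2% lower and 24.9% higher, then 23.4% and 26.6%. Adgre1, 1 of these markers, stood at 3.73 and 3.78 RPKM in the naive libraries and 4.23 and 4.35 in the expanded B cell libraries. For plasmablasts it stood at 0.09 and 0.12. Lyz2 had 0 counts in both libraries of each day 4 population. Csf1r had 3 and 3 in the expanded B cell libraries and 0 and 2 in the plasmablast libraries. Flt3 was higher in plasmablasts than in naive cells (3.54) and Zbtb46 was not called (0.21). The part of these cells in the changes was not tested.

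The course of Ciita and that of the other 9 genes differed in time and in depth. Relative to the naive mean, the share of Ciita left was 17% by 3 h, 11.3% by 10 h, 24.1% by 33 h, 20.8% for expanded B cells and 0.608% for plasmablasts. The 9 others had 25.2% to 106% left by 3 h (median 56%), 3.57% to 14.3% by 10 h (median 8.85%), 8.78% to 28.2% by 33 h (median 18.2%), 5.92% to 25.6% for expanded B cells (median 16.1%) and 0.277% to 28.9% for plasmablasts (median 9.36%). At 3 h Ciita was thus below all 9, at 10 h, 33 h and on day 4 in expanded B cells it was within their range, and in plasmablasts it was below all but H2-Oa. By group, H2-Aa, H2-Ab1, H2-Eb1 and Cd74 were at 72.2% to 106% of naive at 3 h, the H2-M genes at 31.2% to 50.7%, H2-Oa at 25.2% and H2-Ob at 56%.

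**Figure D3:**
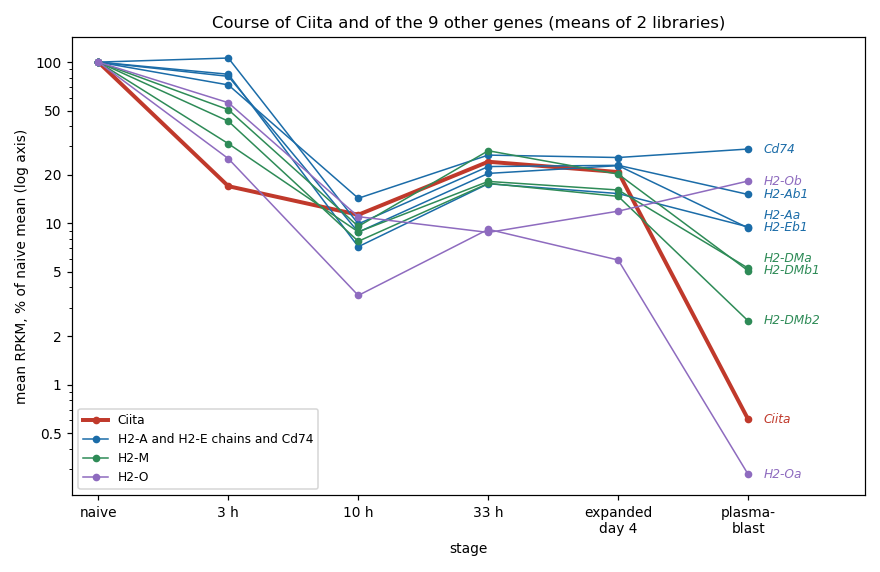
Mean RPKM of each gene as a percentage of its naive mean, on a log axis, with Ciita as the thick line and the 9 other genes coloured by role. Ciita lies below all others at 3 h, among them from 10 h to expanded B cells, and between H2-DMb2 and H2-Oa in plasmablasts.

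The ratio of each gene to Ciita within a library shows the same on a common scale. For H2-Aa, the log2 ratio of RPKM was 5.82 and 5.87 in the naive libraries, 8.49 and 7.90 in the 3 h libraries, 5.28 and 5.08 in the 10 h libraries, 5.33 and 5.49 in the 33 h libraries, 5.32 and 5.50 in the expanded B cell libraries, and 9.74 and 9.90 in the plasmablast libraries. For Cd74 it was 7.34 and 7.31, 9.93 and 8.96, 7.64 and 7.69, 7.37 and 7.58, 7.49 and 7.76, and 12.7 and 13.1 at the same stages. H2-Oa kept closest to Ciita in plasmablasts, with a log2 ratio of 0.73 and 0.44 there, -0.22 and 0.07 in the expanded B cell libraries, and 1.72 and 1.76 in the naive libraries. From naive cells to 3 h the ratio rose without overlap of libraries for 9 of 9 genes, as it did for 86.7% of all tested genes, and from expanded B cells to plasmablasts for 9 of 9, as for 96%. Both shares of all genes are high, and nothing is read from these counts about the 9 genes. The ratio fell without overlap for 0 of 9 at these steps, against 5.07% and 0.996%. From 3 h to 10 h the ratio fell without overlap for 9 of 9 genes and rose for 0, against 10.6% and 53% of all tested genes. From 10 h to 33 h the ratio rose without overlap for 4 genes and fell for 2, against 7.64% and 78.9% of all tested genes. From 33 h to expanded B cells it rose for 3 and fell for 2, against 28.8% and 13.1%. All these ratios share Ciita as denominator, the 9 counts are therefore not independent, and no p is given.

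**Figure D4:**
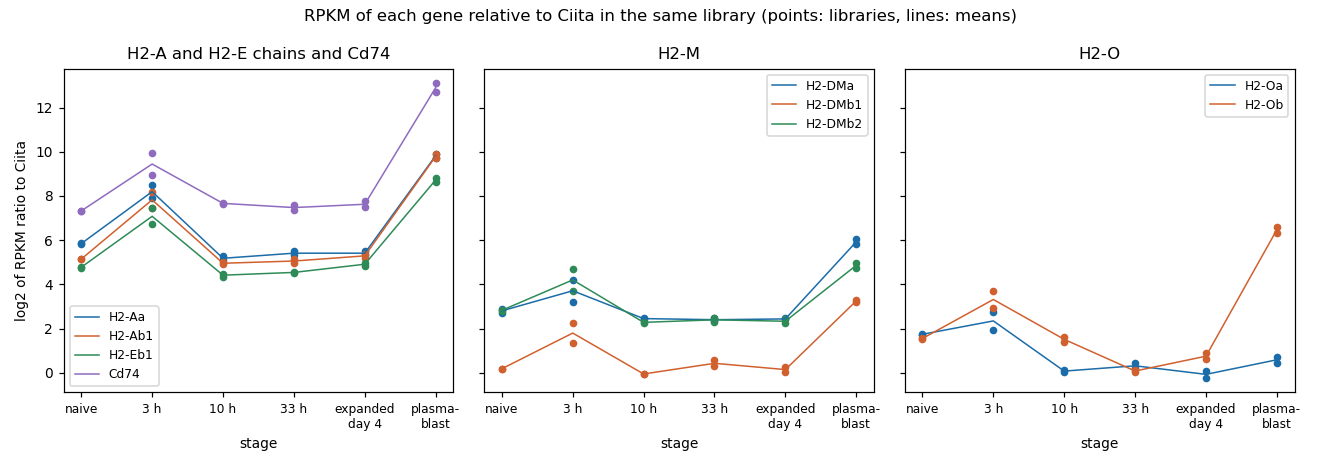
log2 ratio of the RPKM of each gene to that of Ciita in the same library, by stage, with points for libraries and lines for means. For each of the 9 genes the 3 h points lie above the naive points, as for 86.7% of all tested genes. Their plasmablast points lie above those of expanded B cells, as for 96% of all tested genes. H2-Oa alone of the 9 has plasmablast points (0.73 and 0.44) below its naive points (1.72 and 1.76).

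Closeness to Ciita was also measured across 8262 genes with a mean log2 CPM (here with TMM) of at least 3, as the root-mean-square distance between courses of stage means, centred on their own mean. Among the 5 closest genes were Haao (0.44), an enzyme of kynurenine breakdown, Evl (0.51), an actin regulator, Klf2 (0.58), a quiescence factor, and Bank1 (0.59), a B cell adaptor. Haao, for example, had 21.5% of its naive level left by 3 h, 20.8% by 10 h, 36.9% by 33 h, 30.1% for expanded B cells and 0.45% for plasmablasts. Among the 9 other genes H2-Oa was the closest to Ciita, in rank 20 (0.90), followed by H2-DMb2 in rank 30, H2-DMb1 in rank 55 and H2-DMa in rank 70. H2-Eb1 had rank 221, H2-Aa 369, H2-Ab1 531, Cd74 1165 and H2-Ob 2329. The 5 genes closest to the mean course of the 9 were Egr3 (0.32), Hvcn1 (0.33), Arhgef18 (0.36), Mapk11 (0.43) and Gpsm3 (0.43), and Ciita was at 1.43. The distance describes 6 stages and carries no test.

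Of the factors that bind the class II promoters, the RFX subunits Rfx5, Rfxank and Rfxap, the NF-Y subunits Nfya, Nfyb and Nfyc, and Creb1, all 7 were tested, and glmTreat called at most 1 at any consecutive step. From naive cells to 3 h 1 was higher and 0 lower (4 and 2 by the F-test), against 21% and 24.3% of all tested genes, with a median of 0.31 on the log2 scale. From 3 h to 10 h the counts were 0 and 1 (2 and 2 by the F-test), against 17.4% and 13.4%, with a median of -0.14. From 10 h to 33 h none of the 7 was called by glmTreat, against 10.1% and 4.45%, the count at an unadjusted glmTreat p under 0.05 was 0 higher and 1 lower, and the F-test found 0 higher and 2 lower. From 33 h to expanded B cells 0 were higher and 1 lower (3 and 3 by the F-test), against 6.94% and 3.66%, with a median of -0.21, and from these to plasmablasts 0 and 1 (0 and 4 by the F-test), against 13.9% and 12.2%, with a median of -0.34. Over the whole course 2 of 7 were lower in expanded B cells than in naive cells and 3 of 7 in plasmablasts, with 0 higher, against 22.2% and 23.4% of all genes lower (by the F-test 2 higher and 3 lower, and 1 and 3). Rfx5, a DNA-binding subunit of RFX, was at 24.0 and 24.5 RPKM in the naive libraries, 8.48 and 7.86 in the expanded B cell libraries and 5.30 and 5.10 in the plasmablast libraries, and fell to both (-1.57, adjusted p = 1.98e-06, and -2.22, adjusted p = 2.07e-08). Creb1 fell by 0.79 and 1.87 and Nfya, called in plasmablasts only, by 0.89. The calls at consecutive steps were those of Creb1, the cAMP response factor that occupies the neighbour of the X box, which was at 16.3 and 16.9 RPKM in the naive libraries, 34.7 and 28.6 in the 3 h libraries, 13.6 and 14.7 in the 10 h libraries and 4.56 and 4.53 in the plasmablast libraries, and of Nfya, a subunit that contacts the Y box. Creb1 rose by 3 h (0.93, SE 0.10) and fell by 10 h (-1.16, SE 0.10) and in plasmablasts (-1.08, SE 0.10). Nfya fell from 33 h to expanded B cells (-0.83, SE 0.08, adjusted p = 0.0112), a call that was lost without replicate 1 at 33 h (adjusted p = 0.0774) or without either expanded B cell library (0.0703 and 0.0546). The call of Creb1 in expanded B cells against naive cells was lost without replicate 2 of either stage (adjusted p of 0.0765 and 0.0855).

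Factors known to act on the Ciita gene (Prdm1, Pax5, Spi1, Irf4, Irf8, Irf1 and Irf2) were all tested, and 3 of 7 were higher and 3 lower by 3 h, 1 and 3 from 3 h to 10 h, 0 and 0 from 10 h to 33 h by glmTreat (1 and 0 at an unadjusted p under 0.05, 1 and 3 by the F-test), 1 and 0 from 33 h to day 4 of expansion, and 2 and 2 at the step to plasmablasts. The shares over all tested genes were 21% higher and 24.3% lower by 3 h, 17.4% and 13.4% by 10 h, 10.1% and 4.45% by 33 h, 6.94% and 3.66% by day 4 of expansion, and 13.9% and 12.2% in plasmablasts, and 1 and 3 by the F-test stand against 23.2% and 22.2%. At the last 2 steps the F-test gave 3 and 1, and 4 and 3. The median change over the 5 consecutive steps was -0.18, -0.20, -0.02, 0.29 and 0.75. Pax5, the B cell identity factor, fell by 3 h (-1.03, SE 0.16, adjusted p = 0.00592, but 0.0676 without replicate 1 at 3 h) and in plasmablasts (-3.45, SE 0.19, adjusted p = 8.61e-08), where it was at 7.54 and 6.42 RPKM after 77.2 and 75.4 in expanded B cells. Irf4 rose by 3 h (3.53, SE 0.18) and fell by 10 h (-2.22, SE 0.17). Spi1 fell from 3 h to 10 h (-0.88, SE 0.10, adjusted p = 0.00592), a call that was lost without replicate 1 at 3 h (-0.73). Irf1, an interferon regulatory factor, fell by 3 h (-1.69, SE 0.14, adjusted p = 2.36e-06) and rose on differentiation to plasmablasts (1.23, adjusted p = 3e-04). Prdm1, the gene of Blimp-1, was at 0.603 and 0.475 RPKM in the naive libraries, 1.40 and 1.66 in the 3 h libraries, 4.32 and 5.40 in the 10 h libraries, 6.42 and 11.5 in the 33 h libraries, 44.6 and 48.4 in the expanded B cell libraries, and 105 and 117 in the plasmablast libraries. Its libraries did not overlap between any of these stages, and its rise was called at each step but that from 10 h to 33 h (0.88, SE 0.22, adjusted p = 0.179). Without replicate 1 at 33 h that step was called as well (1.25, adjusted p = 0.00139), whereas the rise by 3 h was lost without replicate 1 or 2 at 3 h (adjusted p of 0.0507 and 0.143) and that from 3 h to 10 h without replicate 1 at 3 h (adjusted p = 0.053).

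**Figure D5:**
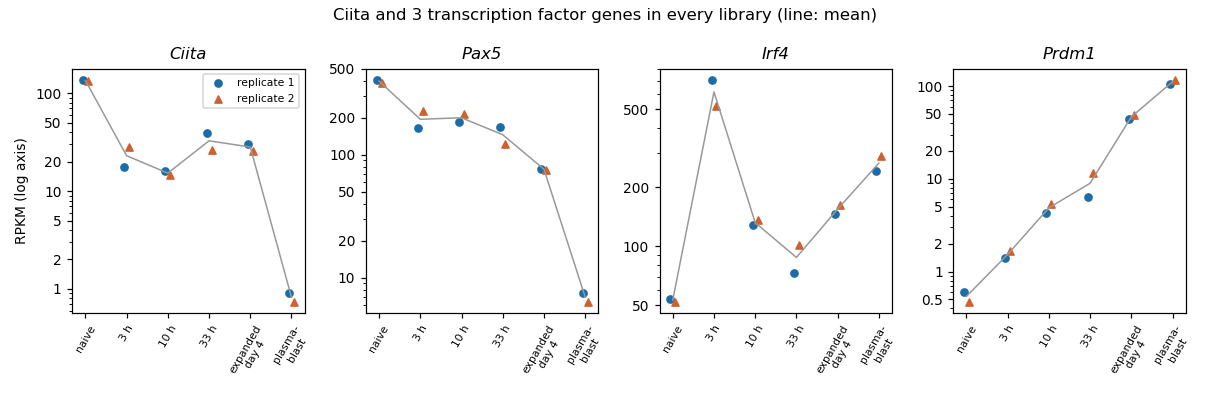
RPKM on a log axis of Ciita, Pax5, Irf4 and Prdm1 at the 6 stages, with circles for replicate 1, triangles for replicate 2 and a line through the means. Ciita drops at 3 h and in plasmablasts, Irf4 is high at 3 h, and Prdm1 is higher at each stage than at the one before.

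Of the enzymes that prepare class II ligands, 5 of 8 were called as higher in plasmablasts than in expanded B cells, and against naive cells 4 were higher and 2 lower (26.6% and 23.4% of all tested genes). Against naive cells the F-test added Sppl2a as higher (adjusted p = 6.26e-05) and Ctss as lower (adjusted p = 1.96e-05). Its shares over all tested genes were 38.2% and 35.9%. Of Ctss, Lgmn, Ifi30, Ctsb, Ctsd, Ctsl, Ctsh and Sppl2a, all 8 were tested, and 1 was higher and 4 lower by 3 h, 1 and 1 by 10 h, 1 and 0 by 33 h, 1 and 1 by day 4 of expansion, and 5 and 1 at the step to plasmablasts. Over all tested genes these shares were 21% and 24.3%, 17.4% and 13.4%, 10.1% and 4.45%, 6.94% and 3.66%, and 13.9% and 12.2%, and nothing is read from a single call among 8 genes. The F-test gave 1 and 6, 2 and 5, 3 and 1, 4 and 1, and 6 and 2 at these steps. The median change was -0.75, -0.38, 0.07 and 0.22 at the first 4 steps. At the step to plasmablasts it was 1.39 on the log2 scale, against -0.05 over all genes and -1.45 over the 10 genes of the set. The cathepsins Ctsl (3.22, SE 0.31, adjusted p = 9.57e-06), Ctsb (2.17, SE 0.10, adjusted p = 1.44e-08) and Ctsd (2.16, SE 0.13, adjusted p = 2.06e-07) rose in plasmablasts. Ctsb was at 36.6 and 38.4 RPKM in the expanded B cell libraries and 169 and 169 in the plasmablast libraries. Ifi30, the lysosomal thiol reductase, fell there (-0.83, SE 0.12, adjusted p = 0.0265), after a rise by 3 h (0.87), a fall by 10 h (-1.79), a rise by 33 h (1.12) and a fall to expanded B cells (-1.04), all called. The call by 3 h was lost without replicate 2 there (adjusted p = 0.0631), and that in plasmablasts without replicate 1 of expanded B cells or either plasmablast library (adjusted p of 0.0886 to 0.127).

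Of the genes that set how long class II molecules stay at the surface, Marchf1 and Cd83 changed most by 3 h. Marchf1, the ubiquitin ligase that sends surface class II for degradation, was at 60.3 and 68.8 RPKM in naive cells and 1.90 and 2.64 at 3 h (-4.81, SE 0.23, adjusted p = 1.07e-08), and at 0.167 and 0.212 in plasmablasts. Cd83, which opposes it, was at 106 and 110 RPKM in naive cells and 1885 and 1579 at 3 h (4.00, SE 0.16, adjusted p = 1.36e-09), then at 227 and 221 at 10 h. Marchf8, a related ligase, was at 0.825 and 1.31 RPKM in the expanded B cell libraries and 4.85 and 4.74 in the plasmablast libraries (2.18, SE 0.20, adjusted p = 9.91e-06). Of these 3 genes 1 was called higher and 1 lower by 3 h (2 and 1 by the F-test), 0 and 1 by 10 h (1 and 1), 0 and 0 by 33 h (0 and 0 also at an unadjusted p under 0.05, 1 and 0 by the F-test), 1 and 2 by day 4 of expansion, and 1 and 2 at the step to plasmablasts. The calls of Marchf8 and Cd83 by day 4 of expansion were lost without replicate 1 at 33 h (adjusted p of 0.291 and 0.228) or replicate 2 of expanded B cells (0.448 and 0.0952), and that of Cd83 in plasmablasts without replicate 1 of expanded B cells (0.0823) or replicate 2 of plasmablasts (0.148). Over all tested genes the shares were 21% and 24.3%, 17.4% and 13.4%, 10.1% and 4.45%, 6.94% and 3.66%, and 13.9% and 12.2%, which 3 genes are too few to be read against. The medians over these steps were 0.81, 0.16, -0.19, -1.03 and -0.95.

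Among neighbours of the class II region with other functions, Psmb8, Psmb9 and Tap1 fell by 3 h and were higher again at 10 h, whereas Btnl2 fell from 3 h to 10 h. Of Btnl2, Psmb8, Psmb9, Tap1, Tap2 and Brd2, all 6 were tested, and 0 were higher and 4 lower by 3 h (2 and 4 by the F-test), 3 and 1 by 10 h (4 and 2), and 1 and 0 by 33 h (3 and 0). Over all tested genes the shares at these steps were 21% and 24.3%, 17.4% and 13.4%, and 10.1% and 4.45%. From 33 h to expanded B cells and from there to plasmablasts glmTreat called 0 of 6, with 0 also at an unadjusted p under 0.05, and the F-test found 1 and 2 higher and 0 lower, near the shares of all genes that were higher (18.5% and 27.2%). The medians over the 5 steps were -1.35, 0.885, 0.25, 0.02 and 0.33. Psmb9, an immunoproteasome subunit, was at 124 and 128 RPKM in the naive libraries, 22.1 and 28.0 in the 3 h libraries and 124 and 89.4 in the 10 h libraries, with a fall (-2.32, SE 0.15) and a rise (2.08, SE 0.15) that were both called. Psmb8 (-1.89 and 1.30) and Tap1 (-1.43 and 1.11), which serve class I presentation, were likewise called at both steps. Btnl2, a butyrophilin-like gene next to H2-Ea, fell by 10 h (-2.82, SE 0.20) and rose by 33 h (1.36, SE 0.20), on 46 to 317 counts per library. H2-Eb2, a further class II beta gene, was at 112 and 101 RPKM in the naive libraries, 43.9 and 50.8 in the 3 h libraries, 13.5 and 12.7 in the 10 h libraries and 11 and 10.6 in the plasmablast libraries, with calls by 3 h (-1.17, SE 0.12) and by 10 h (-1.86, SE 0.13) and none at the 3 later steps by glmTreat or the F-test.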

How the data were processed

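The authors isolated RNA from sorted populations, prepared TruSeq libraries, sequenced paired ends of 81 bp, and obtained gene counts with featureCounts on the Entrez annotation of Rsubread after alignment to mm10. CASAVA 1.8.2 is named in the submitters' processing notes. The deposited values are raw counts per gene and library with exon lengths, neither normalized nor filtered. The genes and lists described here were chosen with earlier results of these data known.

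Symbols, classes and coordinates came from RefSeq (GRCm38.p6), which matched 25275 of 27179 identifiers. Unmatched identifiers (1.41% to 2.08% of counts), 15 mitochondrial, 33 ribosomal RNA and 1279 X and Y chromosome genes and 475 variable immunoglobulin segments were removed, after the study's methods, and filterByExpr kept 12750 genes of the remaining 23473. In R 4.3.3 with edgeR 4.0.16, libraries were scaled with TMM, and all 12 were fitted with 1 coefficient per stage, with quasi-likelihood dispersions in robust mode (earlier method), glmTreat at 1.5-fold and Benjamini-Hochberg adjustment at 0.05. limma 3.58.1 and DESeq2 1.42.0 were loaded, the latter for size factors and a Wald test as alternatives. A gene at or under 3 counts in a library was taken as at the floor. A prior count of 2 was used for log2 CPM in the distances, and levels, ratios and promoter letters carry no test. The glmTreat calls were tried on simulated counts, for the comparison of expanded B cells with plasmablasts only. Named genes were all 10 of the set, up to 4 per other list (those called with the largest change between consecutive stages) and the 5 closest to Ciita or to the mean of the 9 others. Among the markers of other cells, Zbtb46, Flt3, Lyz2, Csf1r and Adgre1 were picked after their values were seen. So were Rfx5 among the promoter factors, Spi1 among the factors acting on the Ciita gene, and Ctss and Sppl2a among the enzymes. Leaving out each library in turn for genes of the other lists, and the wider promoter search, were added after the data were seen. Promoter windows came from RefSeq, and 1 window and a few genes of the lists are not reported here.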

Additional observations from a re-analysis of the deposited data

How the results depend on the processing

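Each comparison of stages was repeated under 23 alternatives, of which 12 left out 1 library. The number of genes called stayed within 1.5 times the reported one at 6 of the 7 comparisons, with 5 to 7 by 3 h, 9 or 10 by 10 h, 6 to 9 by 33 h, 6 to 9 in plasmablasts, and 10 in both comparisons with naive cells. From 33 h to expanded B cells, where 0 were called, the F-test in place of glmTreat gave 2, and leaving out 1 library gave 0 to 1. Of the single values, 1564 kept their direction and their side of the threshold, 25 gained a call, 10 lost one and 11 turned, and those that turned had an adjusted p of 1. With library size alone, H2-Ab1 turned to -0.13 by 3 h and Cd74 to -0.16 in plasmablasts, and with no filter H2-Ab1 turned to -0.0063 from 33 h to expanded B cells. At that step, leaving out 1 library gave values on either side of 0, from -0.48 to 0.11 for Ciita, -0.40 to 0.023 for H2-Aa, -0.15 to 0.23 for H2-Ab1, -0.078 to 0.43 for H2-Eb1, -0.23 to 0.15 for Cd74 and -0.39 to 0.082 for H2-DMa. From 10 h to 33 h, leaving out 1 library gave -0.72 to 8.5e-06 for H2-Ob. The causes were not tested.

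The replicate numbers were not treated as pairs, since the deviations of libraries with the same number correlated at -0.14 to 0.08 over 15 pairs of stages, with 0 above 0.1. A replicate block gave 6 calls by 3 h, with H2-Ob added, 9 by 10 h, 9 by 33 h, 0 in expanded B cells, 6 in plasmablasts, and 10 and 10 against naive cells. DESeq2's Wald test, set against the F-test, gave 7, 10, 9, 3, 9, 10 and 10 calls at the 7 comparisons, where the F-test gave 7, 10, 9, 2, 9, 10 and 10. All 5 genes closest to Ciita remained so over 12 libraries in place of stage means, and the pair of letters stayed in 3 windows when only the bases before the start were searched. With 2 libraries per stage, the spread is estimated across genes, and the levels of Ciita and H2-Oa in plasmablasts rest on the fewest counts.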
